A study of Mus musculus with 15 samples.

Results

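The genes described here set the threshold for apoptosis or restrain the proteases of cell death: Bcl2a1b, Bcl2a1d, Bcl2, Bcl2l1 and Mcl1, which keep mitochondria intact, Bcl2l11 and Bax, which act against them, the caspase Casp6, and the protease inhibitors Serpinb9 and Serpinb8. They are the 10 entries with exactly these names among the 42454 entries of the deposited table, and each was listed once. They were chosen by name, on expression values of these same libraries that were already known, and which contrast served is not recorded. Their values are therefore given as a description, with no p-value.

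Expression was measured by RNA-seq in macrophages of mouse ear skin, in 15 libraries that form 5 groups of 3. All groups came from CX3CR1-creERT2/gfp R26-tdT/+ mice, in which GFP marks cells with an active Cx3cr1 locus and tamoxifen, given 3 weeks before injury, switches on tdTomato in cells that express the locus at that time. The left ear was punched, and skin of the punched left and the unpunched right ear was taken 10 days later. CD11b+ CD64+ Lin- cells were sorted as interstitial macrophages of the unpunched (IM) and punched ear (injIM), resident sensory nerve-associated macrophages of the unpunched (sNAM) and punched ear (injsNAM), and nerve-associated macrophages recruited after the punch (recsNAM). The protocol's gates were GFP-/Tomato- for interstitial, GFP+/Tomato+ for resident and GFP+/Tomato- for recruited cells. The labels' reporter tags follow the ear and not the population, with injIM tagged GFP+/Tomato+ and sNAM tagged GFP-/Tomato-, so groups were taken from the titles. The genotype field reads Cxcr1creERT2/gfp R26tdT/+ where the protocol names CX3CR1. The series used 3 mice, and the labels do not tie a library to a mouse. The groups thus share animals while the fit treats libraries as independent, and its p-values may measure only technical spread.

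Mitochondrial apoptosis is decided by binding among BCL2 family proteins. Guardians such as BCL2, BCL-XL (from Bcl2l1), MCL1 and A1 (from the Bcl2a1 genes) hold BAX and BH3-only proteins such as BIM (from Bcl2l11) in check, and freed BAX opens the outer membrane so that caspases are switched on. A1 is a short-lived, inducible guardian of blood cells and a classical target of NF-kappaB. Serpins of clade B work inside the cell, where SERPINB9 blocks granzyme B, the protease that cytotoxic lymphocytes deliver into their targets.

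A normalized count here is a read count after the authors' division by a scaling factor of its library. Values follow the order of replicates 1, 2 and 3, and ± gives the SD of 3 libraries. A log2 difference is on the log2(value + 100) scale with its standard error (SE) from a limma fit over 8656 genes with a mean value of 100 or more, and it understates changes of low genes. Fold values are ratios of group means. Depth was 20.4 to 23.8 M reads in IM, injIM and recsNAM, 16.9 to 19.5 M in injsNAM and 5.64 to 18.6 M in sNAM, where M is 10 to the power of 6. The sNAM and injsNAM libraries stood apart. Of the tested genes, 3.89% to 25.8% had no read in an sNAM library and 4.26% to 8.79% in an injsNAM library, against at most 0.751% in any other library. The correlation of replicates was 0.762 to 0.772 for injsNAM and 0.644 to 0.776 for sNAM, with at least 0.934 elsewhere, and the fit gave sNAM a weight of 0.175 and injsNAM one of 0.311, against 1.67 to 3.43 for the others. All 10 members passed the filter on low values.

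The Bcl2a1 copies are shown first as sequence, because their likeness limits what a value of any single copy means. Bcl2a1b lies on chromosome 9 at 89199273 to 89207838, Bcl2a1d at 88723288 to 88731850 and the further copy Bcl2a1a at 88956920 to 88962416 (GRCm38), and the stretches before their starts, 206 bases each from RefSeq's GRCm38.p6 sequence and written 5′ to 3′ along the gene, read as follows. Capitals mark the letters TGANTCA of the AP-1 motif and, after them, the letters GAGGAAGT of a PU.1 motif.
Bcl2a1b, chr9:89199023-89199228, plus strand: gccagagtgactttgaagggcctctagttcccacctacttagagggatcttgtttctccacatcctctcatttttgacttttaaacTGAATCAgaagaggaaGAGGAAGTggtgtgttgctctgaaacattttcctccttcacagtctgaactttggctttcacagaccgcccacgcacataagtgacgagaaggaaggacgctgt
Bcl2a1d, chr9:88731851-88732056, minus strand: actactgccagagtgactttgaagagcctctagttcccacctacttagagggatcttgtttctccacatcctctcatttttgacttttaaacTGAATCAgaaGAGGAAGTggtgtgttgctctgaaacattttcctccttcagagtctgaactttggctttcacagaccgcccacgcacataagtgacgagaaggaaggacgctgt
Bcl2a1a, chr9:88956714-88956919, plus strand: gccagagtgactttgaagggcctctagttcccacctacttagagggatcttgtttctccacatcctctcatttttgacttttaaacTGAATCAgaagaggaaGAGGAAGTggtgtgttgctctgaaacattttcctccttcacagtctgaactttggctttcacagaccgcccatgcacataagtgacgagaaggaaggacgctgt

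The stretches of Bcl2a1b and Bcl2a1a were the same at 205 of 206 bases. Those of Bcl2a1b and Bcl2a1d matched at 198 of 206 aligned columns, with 2 mismatches and a gap of 6 bases, and the gap falls between the marked motifs, which lie 9 bases apart in Bcl2a1b and Bcl2a1a and 3 bases apart in Bcl2a1d. The Bcl2a1b stretch ends 44 bases before its annotated start, and the other 2 end at theirs. The 3 motifs searched, on both strands, were GAGGAAGT for PU.1, the factor that defines the macrophage lineage, TGANTCA for AP-1, whose letters read alike on both strands, and GGG, any 3 bases and TTCC for NF-kappaB. Among 32851 RefSeq windows of 300 bases around gene starts, 3.20% held the PU.1 letters, 7.81% the AP-1 letters and 5.56% the NF-kappaB letters. Of the 10 members, Bcl2a1b and Bcl2a1d held the PU.1 letters, Bcl2a1b, Bcl2a1d and Serpinb8 the AP-1 letters, and Bcl2l1 and Mcl1 the NF-kappaB letters in at least 1 window. A match describes these letters only, and the series measured no binding.

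The likeness extends to the transcripts. The GENCODE M21 transcripts of Bcl2a1b (817 bases) and Bcl2a1d (863 bases) were identical at 810 of 817 aligned bases, and of all stretches of 50 bases, 57.6% in Bcl2a1b and 79.5% in Bcl2a1d also occurred in another copy. The shorter Bcl2a1c (444 bases, chromosome 9, 114330135 to 114330578) shared 10.4% of its 50-base stretches. How the authors' counting treated reads that match several copies is not given in the sources used here, so the split between copies is uncertain, and the sum of the copies is given too.

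Bcl2a1b, which encodes the A1 guardian, was highest in sNAM at 6111, 8809 and 6204 normalized counts. It measured 2423, 2638 and 2566 in injsNAM and 1827, 1723 and 2100 in recsNAM. It was lower in interstitial cells, at 429.0, 760.6 and 576.6 in IM and 351.5, 319.7 and 276.4 in injIM. The 5 groups thus formed a ladder from sNAM through injsNAM, recsNAM and IM to injIM with no overlap in any of the 10 pairs of groups. All 10 pairs were separate for 3 of the tested genes, 0.0347%. The group means were 7041 ± 1531 in sNAM, 2542 ± 109 in injsNAM, 1883 ± 195 in recsNAM, 588.7 ± 166 in IM and 315.9 ± 37.7 in injIM. Bcl2a1b was 12.0-fold higher in sNAM than in IM (log2 difference 3.38, SE 0.49), 8.05-fold higher in injsNAM than in injIM (2.67, SE 0.37) and 5.96-fold higher in recsNAM than in injIM (2.25, SE 0.19). Every nerve-associated library exceeded every interstitial library, and in each resident population the punched ear had the lower values. The mean was 1.86-fold higher in IM than in injIM (log2 difference of injIM minus IM -0.70, SE 0.15) and 2.77-fold higher in sNAM than in injsNAM (log2 difference of injsNAM minus sNAM -1.41, SE 0.59).

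Bcl2a1d, the other member of the A1 family, had the same order of group means at lower values. The sNAM libraries had 2407, 2698 and 1521, the injsNAM libraries 534.2, 816.8 and 399.9 and the recsNAM libraries 341.8, 452.4 and 606.1. The interstitial values were 122.5, 194.4 and 130.5 for IM and 121.6, 66.4 and 97.2 for injIM. The resident and recruited cells of the punched ear overlapped, while the other 9 pairs of groups did not, as for 0.531% of tested genes with at least 9 separate pairs. IM and injIM came close to each other, with the lowest IM and the highest injIM library at 122.5 and 121.6. Bcl2a1d was 14.8-fold higher in sNAM than in IM (log2 difference 3.19, SE 0.57), 6.14-fold higher in injsNAM than in injIM (1.77, SE 0.44) and 4.91-fold higher in recsNAM than in injIM (1.52, SE 0.22).

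**Figure D1:**
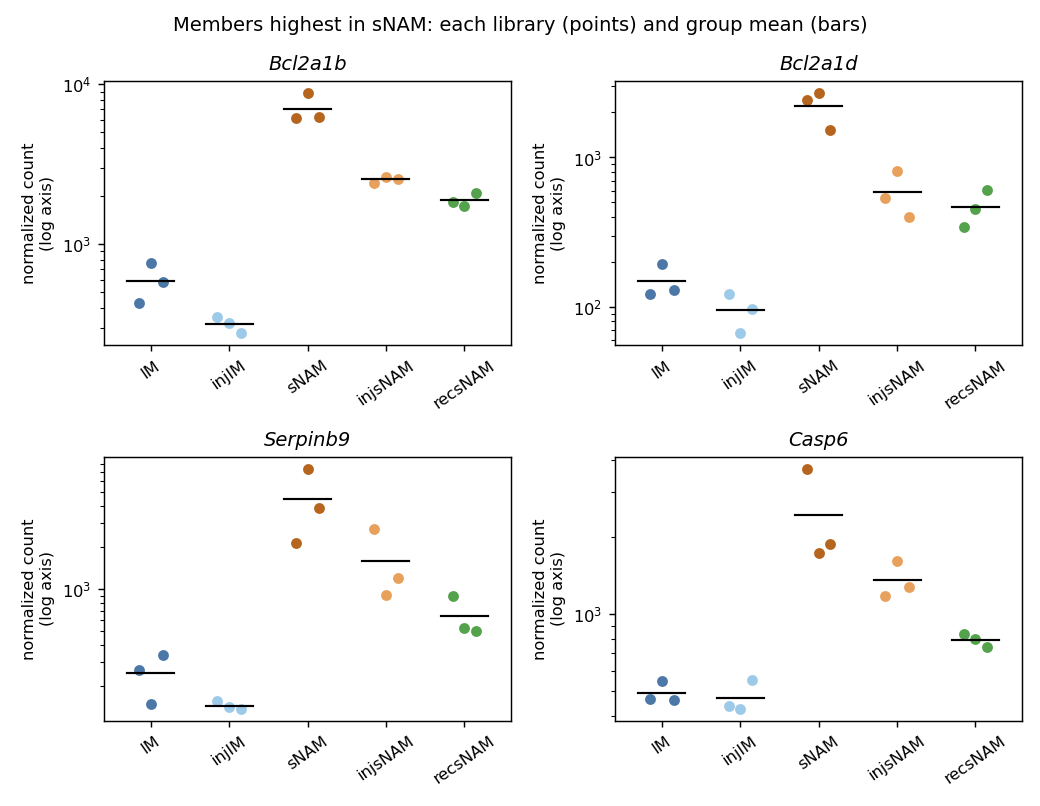
Normalized counts (log axis) of Bcl2a1b, Bcl2a1d, Serpinb9 and Casp6 in each library (points) of the 5 groups, with the group mean as a bar. Group means descend from sNAM through injsNAM and recsNAM to IM and injIM for all 4 genes, from 7041 to 315.9 for Bcl2a1b.

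Summing Bcl2a1a, Bcl2a1b, Bcl2a1c and Bcl2a1d sets aside the split among copies only if each shared read was counted once. Shared reads that were dropped would be missing from the sum, and reads counted for several copies would enter it repeatedly. The sum was 9971 ± 2023 in sNAM, 3532 ± 361 in injsNAM, 2610 ± 288 in recsNAM, 804.9 ± 230 in IM and 465.9 ± 58.2 in injIM. It was 12.4-fold higher in sNAM than in IM, 7.58-fold higher in injsNAM than in injIM and 5.60-fold higher in recsNAM than in injIM. The folds of the sum were close to those of Bcl2a1b, which held most of it. Over the 15 libraries, Bcl2a1b made up 63.4% to 77.5% of the sum, Bcl2a1d 12.1% to 25.7%, Bcl2a1a 4.14% to 13.2% and Bcl2a1c 0.517% to 2.28%. The values counted for each copy did not differ between groups to the same extent, and the part of read assignment in this was not tested. The ratio of sNAM to injsNAM was 1.51 for Bcl2a1a, 2.77 for Bcl2a1b, 3.78 for Bcl2a1d and 5.15 for Bcl2a1c, and that of IM to injIM was 1.13 for Bcl2a1a and 1.86 for Bcl2a1b. Bcl2a1a averaged 571.1 in sNAM, 377.2 in injsNAM, 223.8 in recsNAM, 53.25 in IM and 47.27 in injIM, and Bcl2a1c, with group means of 7.771 to 149.5, was below the filter.

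**Figure D2:**
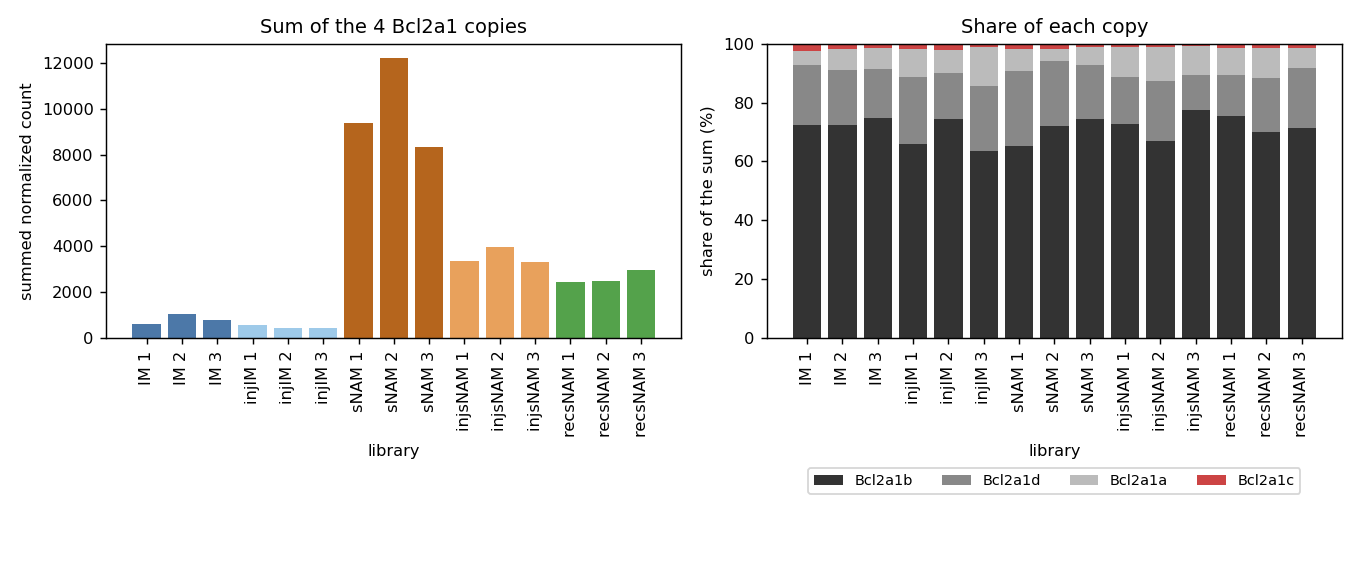
Left, summed normalized count of the 4 Bcl2a1 copies in each of the 15 libraries, coloured by group. Right, percent of that sum counted for each copy. The sum runs from 429.0 in an injIM library to 12226 in an sNAM library, while the Bcl2a1b share stays between 63.4% and 77.5%.

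Serpinb9, the granzyme B inhibitor (chromosome 13, 32997061 to 33017955), followed the same order of group means but varied more. The sNAM libraries had 2156, 7362 and 3832, and the injsNAM libraries 2695, 905.0 and 1212. In recsNAM it measured 899.3, 523.4 and 505.0, against 264.3, 150.5 and 338.0 in IM and 156.9, 143.3 and 137.4 in injIM. All nerve-associated libraries were above all interstitial libraries. The sNAM libraries overlapped those of injsNAM, and IM overlapped injIM, so 8 of the 10 pairs of groups were separate. The means were 4450.0 ± 2657 in sNAM and 250.9 ± 94.4 in IM, a 17.7-fold difference (log2 difference 3.56, SE 0.65). On the punched side they were 1604 ± 957 in injsNAM and 642.6 ± 223 in recsNAM against 145.9 ± 9.98 in injIM, 11.0-fold (log2 difference 2.65, SE 0.50) and 4.41-fold higher (1.56, SE 0.25). Every recsNAM library was below every injsNAM library, and the mean was 2.50-fold higher in injsNAM.

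Serpinb8, a clade B serpin that inhibits furin-like proteases (chromosome 1, 107589926 to 107608978), ran the other way. It measured 2157, 1911 and 2983 in IM and 2279, 2332 and 1840 in injIM. The nerve-associated values were 395.0, 17.5 and 732.7 for sNAM, 1191, 1210 and 652.6 for injsNAM and 1268, 1394 and 985.1 for recsNAM. All interstitial libraries were above all nerve-associated libraries, and injury moved neither population clear of its unpunched counterpart. The mean was 6.16-fold higher in IM than in sNAM (2350.5 ± 561 against 381.7 ± 358, log2 difference of sNAM minus IM -2.73, SE 0.59), 2.11-fold higher in injIM than in injsNAM and 1.77-fold higher in injIM than in recsNAM. The value of 17.5 comes from the sNAM library of lowest depth, in which 25.8% of the tested genes had no read. The part of such loss in the low sNAM values was not tested.

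Casp6, an executioner caspase (chromosome 3, 129901415 to 129914112), was highest in sNAM as well. Its values were 3697, 1726 and 1878 for sNAM, 1178, 1607 and 1272 for injsNAM and 835.5, 800.2 and 741.0 for recsNAM. In interstitial cells it measured 464.5, 545.1 and 461.6 in IM and 437.8, 424.1 and 550.5 in injIM. IM and injIM overlapped, and the other 9 pairs of groups were separate. Casp6 was 4.96-fold higher in sNAM than in IM (2434 ± 1097 against 490.4 ± 47.4, log2 difference 2.02, SE 0.45), 2.87-fold higher in injsNAM than in injIM (1.34, SE 0.35) and 1.68-fold higher in recsNAM than in injIM (0.65, SE 0.18).

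Bcl2l11, the BH3-only activator BIM (chromosome 2, 128126038 to 128162547), leaned to the nerve-associated side. It measured 7814, 5065 and 6511 in sNAM, against 3123, 4165 and 3336 in IM. It measured 6759, 7047 and 2202 in injsNAM and 4563, 4849 and 4945 in recsNAM, against 3796, 3859 and 3200 in injIM. The sNAM and recsNAM libraries were above all interstitial ones, while injsNAM replicate 3, at 2202, was the lowest of all 15 libraries. The mean was 1.83-fold higher in sNAM than in IM (log2 difference 0.84, SE 0.44).

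Bax, the pore former (chromosome 7, 45461695 to 45466903), stayed in a narrow range. Its mean was 3465 ± 448 in injsNAM, 3108 ± 1041 in sNAM, 2973 ± 367 in recsNAM, 2548 ± 498 in injIM and 2487 ± 73.5 in IM. Only 2 of the 10 pairs of groups were separate, and the log2 difference was at most 0.44 (SE 0.31) in size, for injsNAM minus injIM.

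Among the other guardians, Mcl1 (chromosome 3, 95656944 to 95663179) was abundant everywhere. It measured 61784, 46248 and 55497 in IM, 48842, 46111 and 42857 in injIM and 53668, 37537 and 36424 in sNAM. In injsNAM it measured 44720, 43119 and 41434, and in recsNAM 35116, 36008 and 35559. The recsNAM libraries lay below all the others and within a narrow span, and the remaining neighbours in the order overlapped. The log2 difference of recsNAM minus injIM was -0.37 (SE 0.13).

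Bcl2l1, which encodes BCL-XL (chromosome 2, 152758732 to 152833803), differed most with injury of interstitial cells. It measured 4236, 4368 and 3381 in IM and 2075, 2151 and 1638 in injIM. These groups did not overlap, and the mean was 2.04-fold higher in IM (log2 difference of injIM minus IM -0.996, SE 0.15). The nerve-associated libraries had 4458, 1435 and 2631 for sNAM, 3388, 1247 and 2463 for injsNAM and 1878, 1643 and 2205 for recsNAM. The sNAM and injsNAM libraries overlapped both interstitial groups.

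Bcl2 itself (chromosome 1, 106538176 to 106714290) was low and uneven. It measured 183.3, 144.7 and 91.6 in IM, 82.1, 95.5 and 53.9 in injIM and 56.1, 120.9 and 70.4 in recsNAM. In sNAM it was 9.63, 0 and 1053, and in injsNAM 587.1, 279.4 and 113.9. A count of 0 in sNAM replicate 2 allows a value of up to 8.73, the worth of 3 reads in that library, for counting error only, and PCR reads are not independent molecules. Summed markers of T and NK cells, in counts per library total (CPM, reads scaled to a total of 10 to the power of 6), were 174.9, 16.1 and 393.2 in the sNAM libraries and 454.1, 21.8 and 425.3 in injsNAM, against 2.26 to 10.8 in every other library. Of these 10 markers, Cd2 and Ncr1 were at 0 in all libraries. Bcl2 is strongly expressed by resting lymphocytes, and the part of such cells in its values was not tested. In bulk libraries, fewer cells of a type and less RNA per cell cannot be told apart.

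**Figure D3:**
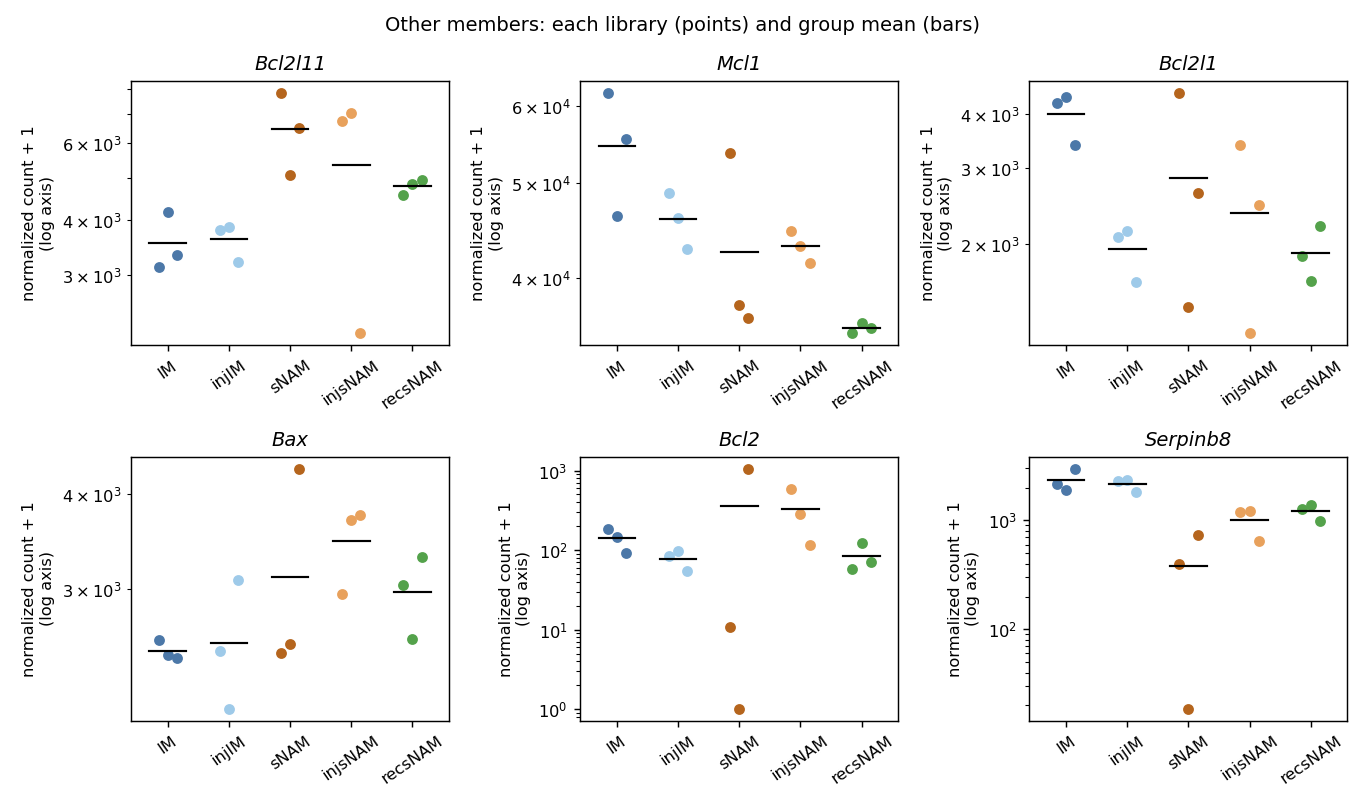
Normalized count + 1 (log axis) of Bcl2l11, Mcl1, Bcl2l1, Bax, Bcl2 and Serpinb8 in each library (points), with group means as bars. Serpinb8 is higher in all interstitial than in all nerve-associated libraries, Bcl2l1 is lower in injIM than in IM, and Bcl2 runs from 0 to 1053 within sNAM.

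To compare guardians with each other, group means were divided by the joint length of all annotated exons of each gene in kilobases. Mcl1 had the highest level per kilobase of all members in every group, 15948 in IM and 12447 in sNAM. Bcl2a1b came to 720.6 in IM and 386.6 in injIM, but to 8618 in sNAM, 3112 in injsNAM and 2305 in recsNAM. Bcl2l1 had 871.1 in IM, 426.2 in injIM and 416.1 to 619.6 in the 3 nerve-associated groups. With all 4 copies added per kilobase, A1 came to 12212 in sNAM, 4314 in injsNAM, 3200.4 in recsNAM, 989.6 in IM and 572.0 in injIM. These sums were above Bcl2l1 in every group, whereas Bcl2a1b alone was below Bcl2l1 in IM and injIM. The order depends on the exon lengths used and on how shared reads were counted, which is not known. Bcl2 had 8.43 to 38.7 per kilobase, the lowest level of all members in each group. The pore former Bax had 1578 to 2199 and BIM's gene Bcl2l11 441.1 to 805.0. Serpinb9 had 1274 per kilobase in sNAM against 71.8 in IM, and Serpinb8 had 79.6 against 490.2. Other annotated genes overlap 6 members, and each had a mean value of at most 19.0 normalized counts.

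The fit over all genes puts these differences beside the rest of the transcriptome, at a Benjamini-Hochberg adjusted p under 0.05. Because the choice of members used these libraries, the counts of members describe them and nothing is read from them. The same holds below where a member keeps its call under another method or without a library, which is no separate support. In sNAM against IM, 5 of 10 members passed, with 1.05% of all tested genes called. Bcl2a1b, Bcl2a1d, Serpinb9 and Casp6 were higher, where 0.543% of tested genes were called higher, and Serpinb8 was lower, where 0.508% were called lower. The median log2 difference was 0.55 for the members and -0.26 for all tested genes. With Bcl2l11 counted too, 6 members did not overlap between the groups, as did 27.9% of tested genes. The calls depended on which sNAM libraries were included. Without sNAM replicate 1 or replicate 3, 0 members passed, and 0 and 9 genes in all, against 91 with all libraries. Without sNAM replicate 2, 4 members passed. By edgeR 4 members passed, by DESeq2 5 and in the fit with 1 pooled spread 5. With a pseudocount of 10 in place of 100, 0 members and 0 genes passed.

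In recsNAM against injIM the same 5 members passed in the same directions, with 7.53% of tested genes called, 3.19% higher and 4.34% lower. The medians were 0.31 for members and -0.02 for all genes, and 7 members did not overlap, as did 23.9% of tested genes. In limma, Bcl2a1b, Bcl2a1d and Serpinb9 passed whichever library was left out, and DESeq2 called these 3. Only Bcl2a1b passed in edgeR and in the fit with 1 pooled spread. Casp6 did not pass without injIM replicate 1 or 2 or recsNAM replicate 1 or 2, and Serpinb8 failed when any of these 4 or recsNAM replicate 3 was left out.

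In injsNAM against injIM, Bcl2a1b and Serpinb9 were called higher, with 0.243% of tested genes called higher and 0.485% called in either direction. The medians were 0.78 for members and -0.09 for all genes, and 6 members did not overlap, as did 21% of tested genes. Neither passed without injsNAM replicate 3, when 2 genes were called in all, and only Bcl2a1b passed without injsNAM replicate 1, when 6 were.

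For the effect of the punch, Bcl2a1b and Bcl2l1 were called lower in injIM than in IM, where 4.03% of tested genes were called lower, 4.15% higher and 8.18% in either direction. With Bcl2a1d, 3 members did not overlap between these groups, as did 24.9% of tested genes. In limma both passed whichever library was left out, while edgeR and the fit with 1 pooled spread called 0 members and DESeq2 called Bcl2a1b alone. Without IM replicate 2, Mcl1 and Serpinb9 passed as well. In injsNAM against sNAM, 0 members passed and 0 genes in all (0%) by limma, with 586 genes at an unadjusted p under 0.05. There edgeR called 135 genes, Bcl2a1b among them, and DESeq2 called 723, Bcl2a1b and Bcl2a1d among them. Bcl2a1b, Bcl2a1d and Casp6 did not overlap between these groups and were lower in injsNAM, as 12% of tested genes did not overlap in either direction. In recsNAM against injsNAM, 0 members passed by limma and 0 genes in all (0%), with 619 at an unadjusted p under 0.05, while edgeR called 6 genes and DESeq2 153, none of them members. Bcl2a1b, Serpinb9, Casp6 and Mcl1 were lower in recsNAM without overlap, and 13.7% of tested genes did not overlap. The comparisons share groups, so their values are set side by side and not correlated.

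**Figure D4:**
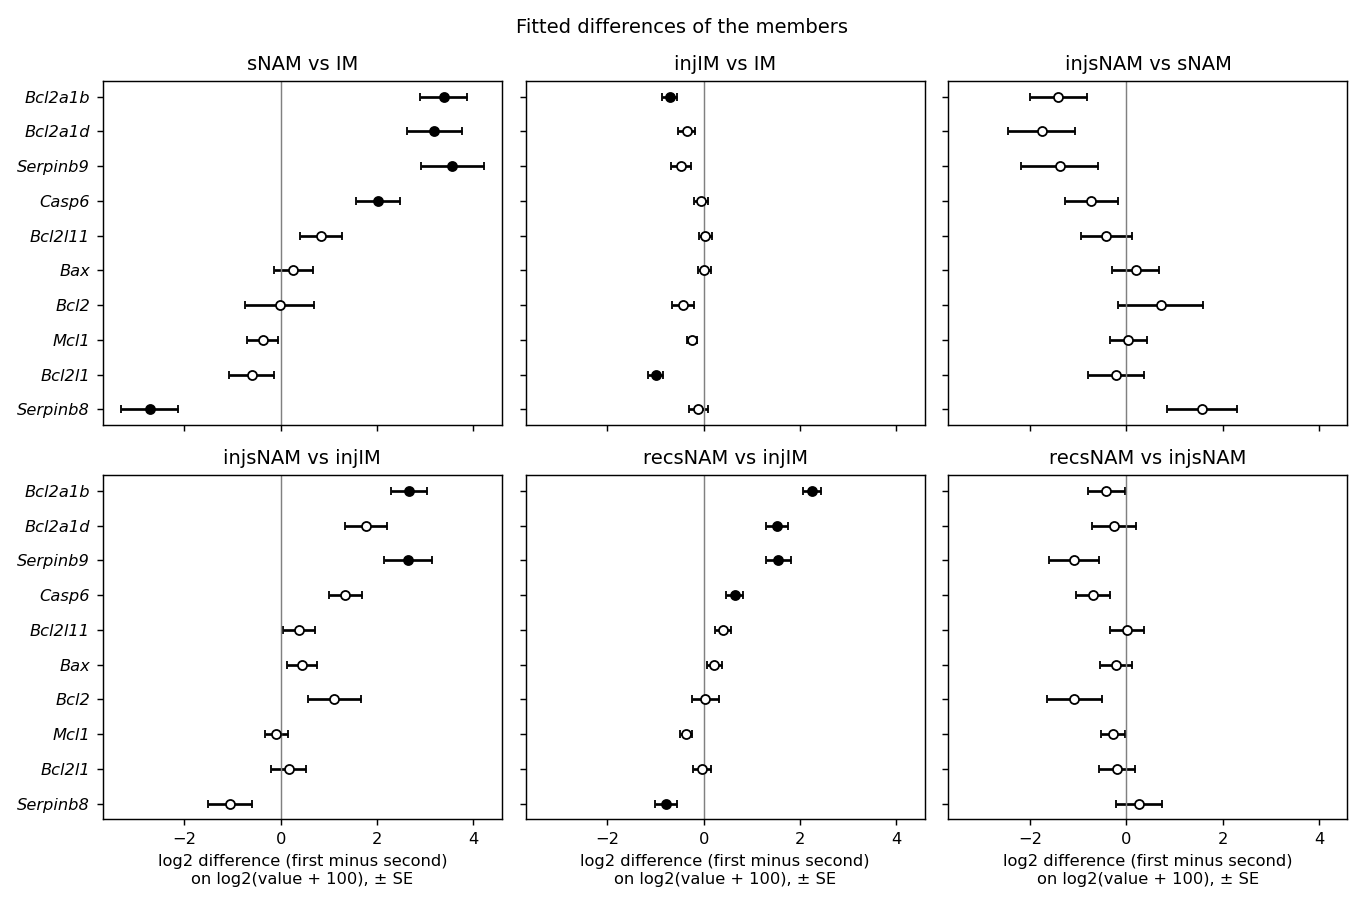
Log2 difference ± SE (log2(value + 100) scale, first group minus second) of the 10 members in 6 comparisons, filled where the adjusted p of the limma fit over all genes was under 0.05. Bcl2a1b, Bcl2a1d, Serpinb9 and Casp6 lie to the right and Serpinb8 to the left of zero in the 3 comparisons of nerve-associated with interstitial cells.

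The wider death and survival machinery was read from 8 lists with 78 genes besides the members, 47 of which were tested. In sNAM against IM, 1 of the 47 was higher and 0 lower by limma, with 1.05% of all tested genes called. It was Pmaip1, which encodes NOXA, a BH3-only protein that binds MCL1 and A1. It measured 4698 ± 1409 in sNAM and 600.6 ± 129 in IM (log2 difference 2.75, SE 0.65, limma adjusted p = 0.0459). The call was lost without sNAM replicate 1 (adjusted p = 0.289), sNAM replicate 3 (0.252) or IM replicate 3 (0.0573). None of the 6 other tested caspases, 7 caspase inhibitors, 5 apoptosome and mitochondrial factors, 7 death receptor genes, 4 other clade B serpins or 10 NF-kappaB genes passed by limma. Of all 47, edgeR called 6, with Traf1, Nfkbib, Rel, Serpinb6a and Bcl2a1a besides Pmaip1, and DESeq2 called 9, adding Htra2, Tnfrsf1a and Birc2. The median log2 difference over the 47 genes was -0.04, against -0.26 over all tested genes.

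In recsNAM against injIM, 4 of the 47 were called higher and 1 lower, where 3.19% of all tested genes were called higher and 4.34% lower. Bcl2a1a, the third A1 copy, is among the 4, at 223.8 ± 31.5 in recsNAM against 47.27 ± 12.1 (log2 difference 1.14). Its reads may be those of Bcl2a1b and Bcl2a1d, so it is no separate evidence and is given no p-value. Of 10 NF-kappaB genes, 3 were higher: Traf1, an adaptor of TNF receptors, at 6999 ± 388 against 3498 ± 412 (adjusted p = 0.00271), the subunit Rel (adjusted p = 0.0339) and the inhibitor Nfkbie (adjusted p = 0.00957). The clade B serpin Serpinb6a was lower, at 2212 ± 446 against 5472 ± 791 (log2 difference -1.28, adjusted p = 0.000334). With edgeR on the recovered reads none of the 5 passed, the other 4 at adjusted p from 0.113 to 0.916. DESeq2 on the same reads called Traf1 (DESeq2 adjusted p = 0.00334) and Serpinb6a (0.0113), but not Rel or Nfkbie. In limma, Traf1 and Serpinb6a passed whichever library was left out. Without 1 library, Rel was lost for recsNAM replicate 1 or 2 or injIM replicate 3 and Nfkbie for recsNAM replicate 1 or injIM replicate 1, at adjusted p up to 0.352.

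In injIM against IM, 2 of the 47 were called higher and 4 lower, where 8.18% of all tested genes were called in either direction. Lower were Serpinb1a, an inhibitor of neutrophil proteases, at 382.6 ± 139 against 1351 ± 336 (log2 difference -1.61, limma adjusted p = 0.000234), Serpinb6a (-0.69), the NF-kappaB subunit Nfkb1 (-0.67) and the TNF receptor Tnfrsf1a (-0.35). Higher were Traf1 (0.67) and the necroptosis kinase Ripk3 (0.48). The limma adjusted p of these other 5 ran from 0.00506 to 0.0489. In edgeR none of the 6 passed, Serpinb1a included, at adjusted p from 0.987 to 1. In limma, Serpinb1a and Nfkb1 passed whichever library was left out. Traf1 was lost without IM replicate 1 or 3 or injIM replicate 1, Serpinb6a without IM replicate 1 or 3 or injIM replicate 2, Ripk3 without IM replicate 1 or 3 or injIM replicate 1 or 2, and Tnfrsf1a whichever library was left out.

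In injsNAM against injIM, 0 of the 47 were higher and 1 was lower, with 0.485% of all tested genes called. The initiator caspase Casp9 measured 0, 0 and 0.856 in injsNAM, where 0.856 is the worth of 1 read, and 362.2, 417.6 and 436.6 in injIM (limma adjusted p = 0.0264). It also measured 0, 0 and 109.2 in sNAM. The call was lost when injIM replicate 2 or any injsNAM replicate was left out (adjusted p from 0.056 to 0.152), and with edgeR (0.0991). The part that lost transcripts in these libraries had in the value was not tested. None of the 47 passed in injsNAM against sNAM or in recsNAM against injsNAM by limma, and edgeR called 1 and 0 of them. Granzymes and perforin were all below the filter on the mean over libraries. Gzmb, the target of SERPINB9, measured 128.4, 31.4 and 101.1 in IM, 0 in every sNAM library and 159.3, 0 and 46.2 in injsNAM. Prf1, which encodes perforin, measured 346.8, 0 and 340.0 in injsNAM and 167.6 in sNAM replicate 1, against at most 14.8 in any other library. These 3 libraries had T and NK marker sums of 174.9 to 454.1 CPM, and sNAM replicate 3, with a sum of 393.2, had 3.70 of Prf1.

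Markers of macrophages and of other skin cells were summed in CPM to set these levels beside the makeup of the libraries. The 8 macrophage markers, none of them at 0, summed to 12422 to 13763 in recsNAM, 9535 to 10619.5 in sNAM, 10069.8 to 11349.9 in injsNAM, 14069 to 14692 in IM and 12585 to 12906 in injIM. Macrophage transcripts were thus abundant in all groups. The 10 dendritic cell markers summed to 5596 to 7012 in sNAM, 2066 to 3078 in injsNAM, 1593 to 2002 in recsNAM, 2031 to 2535 in IM and 1005 to 1187 in injIM. Cd83 led this sum in every group, and Clec9a was at 0 in injsNAM. The sum was highest in sNAM, as were Bcl2a1b, Bcl2a1d, Serpinb9 and Casp6, and its part in their values was not tested. The markers within the sum did not move alike between IM and recsNAM, which differ in ear as well as population. Cd83 went from 1956 to 2453 CPM down to 1282 to 1601. Ccr7 went from 16.4 to 33.5 up to 184.4 to 399.9 and Flt3 from 0.582 to 1.77 up to 9.14 to 29.7. Within the punched ear, each of these was higher in recsNAM than in injIM. The injIM values were 960.9 to 1133 for Cd83, 4.90 to 18.4 for Ccr7 and 1.14 to 5.15 for Flt3. In the unpunched ear each was higher in sNAM than in IM, with sNAM values of 3760 to 4998, 1072 to 2287 and 98.7 to 209.7. Of the other markers, Ccl22 and Zbtb46 were also higher in sNAM than in IM, while Ccl17, Fscn1, Dpp4 and Clec9a overlapped. Xcr1 went the other way, at 9.55, 0 and 7.48 in sNAM against 12.7 to 29.3 in IM. Between recsNAM and injIM, Xcr1, Zbtb46, Dpp4 and Clec9a overlapped, and Ccl22, Ccl17 and Fscn1 were higher in recsNAM. Mast cell markers summed to 0.161, 1909 and 159.8 in the sNAM libraries and 569.3 to 743.8 in IM. In the punched ear they summed to 259.7 to 275.2 in injIM, 15.4 to 201.0 in injsNAM and 196.1 to 260.9 in recsNAM. Fibroblast markers summed to 253.5 to 437.9 in IM and 275.3 to 1046 in injIM. They came to 6.28 to 52.5 in sNAM, 0.355 to 38.8 in injsNAM and 44.3 to 263.1 in recsNAM. Their part in the values of genes higher in interstitial cells was not tested.

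**Figure D5:**
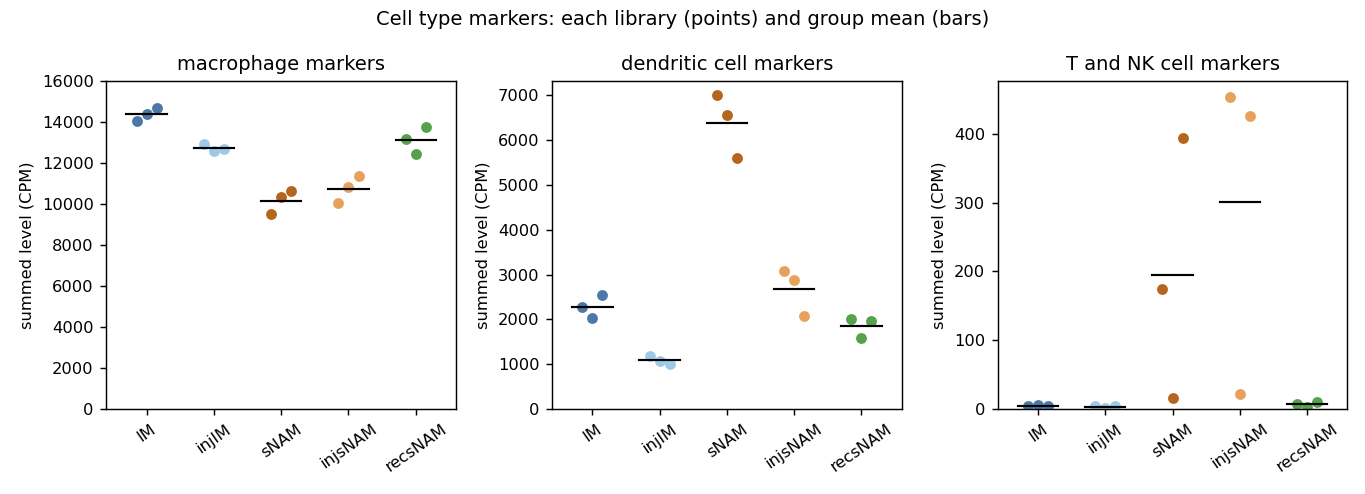
Summed level (CPM, linear axis) of macrophage, dendritic cell, and T and NK cell markers in each library (points), with group means as bars. Macrophage sums stay between 9535 and 14692, dendritic cell sums peak in sNAM at 5596 to 7012, and T and NK sums exceed 10.8 only in sNAM and injsNAM.

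The tested genes whose levels most resembled those of Bcl2a1b over the 15 libraries, by Pearson correlation of log2(value + 100), were Stap1 (0.958), Ccr7 (0.956), Dusp2 (0.950), Rps27l (0.948) and Arl5c (0.943). For Bcl2a1d they were Stap1 (0.956), Srgn (0.947), Arl5c (0.945), Dusp2 (0.9445) and Rps27l (0.933). For Serpinb9 they were Rgs1 (0.948), Timd4 (0.948), an entry that the table spells as a date (0.943), Fam49a (0.934) and Myo1g (0.927). Among the members, Bcl2a1b correlated with Bcl2a1d at 0.968, with Serpinb9 at 0.934, with Casp6 at 0.909 and with Bcl2l11 at 0.616. By Spearman rank correlation, Stap1 and Dusp2 stayed among the 5 for Bcl2a1b and for Bcl2a1d. Cnnm4, Serpinb9 and Timd4 joined them for Bcl2a1b, where Ccr7 dropped out, and Cnnm4, Arih2 and Il1b for Bcl2a1d. For Serpinb9, Ccr7 took the place of Myo1g. These values describe libraries that fall into 5 groups and share animals, and reads of Bcl2a1b and Bcl2a1d may have been exchanged. Ccr7, a chemokine receptor of migrating cells, averaged 26810 in sNAM, 7005 in injsNAM, 4936 in recsNAM, 452.2 in IM and 213.8 in injIM, the same order as Bcl2a1b.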

How the data were processed

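RNA-seq was made from 250 pg of RNA per library with SMARTer cDNA synthesis, 13 PCR cycles and Nextera XT, per the labels' protocols. The submitters' processing notes name STAR 2.7.2b, cutadapt, bcl2fastq 2.18, DESeq2 1.24.0 and R 3.6.1, and the build mm10 (GRCm38). Not given in the sources used here are the read counter, its annotation and its strand setting. Each deposited value is a signal, a gene's reads after the authors' scaling of the whole library by a single divisor. In each library, 100% of values above 0 lay within 0.01 of whole multiples of the smallest value, so whole reads were recovered for edgeR and DESeq2. Of the 42454 entries, 36134 matched a RefSeq symbol.

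The fit was limma-trend (limma 3.58.1, R 4.3.3) with robust moderation on log2(value + 100), for 8656 genes with a mean value of 100 or more, 1 mean and 1 weight per group, and Benjamini-Hochberg adjustment within each comparison at 0.05. It was run on simulated data in which every group was drawn from the IM means and genes were changed in injIM only. The simulation did not model genes left without reads, so it cannot show how the fit deals with those in sNAM and injsNAM. Alternatives were edgeR 4.0.16 and DESeq2 1.42.0 on recovered reads, a pseudocount of 10, no filter, 1 pooled spread, scaling to total reads, a replicate block and leaving out each library. The text names all members, every listed pathway gene that passed, and the 5 genes most correlated with Bcl2a1b, Bcl2a1d and Serpinb9, by Pearson and by Spearman correlation. The members, lists and tests were chosen with earlier results of these data known.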

Additional observations from a re-analysis of the deposited data

How the results depend on the processing

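The log2 differences of the members gave 780 values under alternatives, of which 746 moved by less than the replicate SD and 34 by more. Most of these values could not move by more. No filter, 1 pooled spread and the replicate block leave the difference itself unchanged. Leaving out 1 library shifts a group mean by less than this SD. The 746 is therefore no measure of stability. Direction was followed only for differences that limma called with all libraries, and 0 of those reversed. Changes of sign in differences that were not called were not counted. Counts of calls depended on the setting. For each setting the counts below run in the order sNAM against IM, injIM against IM, injsNAM against sNAM, injsNAM against injIM, recsNAM against injIM and recsNAM against injsNAM. With all libraries, limma called 91, 708, 0, 42, 652 and 0 genes, edgeR 332, 4, 135, 35, 9 and 6, and DESeq2 923, 64, 723, 313, 121 and 153. A pseudocount of 10 gave 0, 670, 0, 53, 639 and 0, no filter 120, 315, 4, 102, 362 and 12, and 1 pooled spread 727, 18, 363, 69, 22 and 2. For the pathway lists limma called 1, 6, 0, 1, 5 and 0 genes, edgeR 6, 0, 1, 0, 0 and 0, DESeq2 9, 0, 3, 2, 2 and 0, a pseudocount of 10 gave 0, 7, 0, 1, 6 and 0, no filter 4, 2, 0, 2, 4 and 0, and the pooled spread 7, 0, 2, 3, 0 and 0. Of the members limma called 5, 2, 0, 2, 5 and 0, edgeR 4, 0, 1, 3, 1 and 0, DESeq2 5, 1, 2, 4, 3 and 0, a pseudocount of 10 gave 0, 2, 0, 2, 4 and 0, no filter 4, 2, 0, 4, 4 and 0, and the pooled spread 5, 0, 2, 3, 1 and 0. The cause of these shifts was not tested. Scaling to total reads gave 89, 718, 0, 38, 630 and 0 genes, and in injIM against IM it moved the split from 359 higher and 349 lower to 450 higher and 268 lower.

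Leaving out 1 library at a time gave 0 to 108, 399 to 827, 0 to 0, 2 to 75, 272 to 898 and 0 to 39 genes, 0 to 4, 2 to 6, 0 to 0, 0 to 1, 3 to 6 and 0 to 0 pathway genes, and 0 to 5, 2 to 4, 0 to 0, 0 to 3, 3 to 6 and 0 to 0 members. Outside the range of 1.5 times were, for sNAM against IM, the counts without IM replicate 3 (57), sNAM replicate 1 (0) and sNAM replicate 3 (9). For injIM against IM they were those without IM replicate 1 (425), IM replicate 3 (399) and injIM replicate 1 (428). For injsNAM against injIM they were those without injIM replicate 1 (26), 2 (20) and 3 (75) and injsNAM replicate 1 (6), 2 (74) and 3 (2). For recsNAM against injIM they were those without injIM replicate 1 (357) and recsNAM replicate 1 (272), and for recsNAM against injsNAM those without injsNAM replicate 2 (39) and recsNAM replicate 3 (2).

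The labels number the replicates 1 to 3 in every group. Deviations of same-numbered libraries correlated between -0.021 and 0.388, and all but that of -0.021 were above 0. The largest were in recsNAM against injIM, at 0.0926, 0.388 and 0.37 for replicates 1, 2 and 3. In no comparison did all 3 pairs exceed 0.1, a cut set by convention, and the numbers were not taken to pair the libraries. Whether same-numbered libraries share a mouse is not given. With the replicate block, 100, 928, 0, 70, 1211 and 0 genes were called, 2, 12, 0, 1, 11 and 0 of the pathway lists and 5, 2, 0, 2, 6 and 0 members. Depth limits sNAM most: 1 read is worth 2.91 normalized counts in sNAM replicate 2 and at most 1.85 in any other library.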
